A study of Danio rerio with 12 samples.

Results

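The mitochondrial respiratory chain was followed at the mRNA level through its nuclear genes in whole zebrafish larvae harvested at 48 h post-fertilization (hpf). The genes were chosen by name alone: those beginning with *nduf*, *uqcr*, *atp5*, *cox4*, *cox5*, *cox6*, *cox7* or *cox8*, together with *sdha*, *sdhb*, *sdhc*, *sdhd*, *cyc1* and *cycsb*. The rule took 102 of the 25902 genes in the count table, and 100 of them had enough reads to be tested. They comprise 45 genes of complex I, 5 of complex II, 9 of complex III, 1 cytochrome c gene, 22 of complex IV and 20 of complex V. Names came from the study's own gene table for 1 member and from a table of Ensembl names for 101. *cox5b*, *cox6a1* and *sdhd* each name a pair of genes in that table, and these are given with their Ensembl identifiers.

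The respiratory chain passes electrons from NADH (complex I) and succinate (complex II) through ubiquinone, complex III and cytochrome c to oxygen at complex IV. The proton gradient that results drives ATP synthase (complex V). Most subunits are encoded in the nucleus and imported, and a small set in the core of complexes I, III, IV and V is encoded by mitochondrial DNA. In mammals mTORC1, the kinase complex that rapamycin inhibits, is known to promote the expression of nuclear mitochondrial genes. Muscle and nervous tissue are known to depend on the chain for much of their ATP.

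The 12 libraries were poly-A selected and came from 4 groups of 3. Homozygous *apc* mcr/mcr larvae, which carry a truncating allele of the Wnt pathway tumor suppressor *apc*, and WT larvae received either vehicle (0.1% DMSO) or 100 nM rapamycin from 24 hpf. Embryos were separated by the shape of their body axis, so the WT libraries pool wild-type with heterozygous siblings. Each replicate was a pool of 20 whole embryos, and the larvae came from 3 clutches. In bulk RNA of this kind, fewer cells of a type and less RNA per cell cannot be told apart.

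The deposited values were estimated counts per gene. Levels are given below as CPM, counts scaled to the size of each library after TMM normalization over all 12, and levels are compared between libraries for a gene, never between genes. Total counts were 51692772 to 82364863 per library, with the lowest in WT rapamycin replicate 2. *axin2*, a target that Wnt signaling induces, was at 171.9 to 185.5 CPM in the mutant libraries and at 45.2 to 62.8 CPM in the WT libraries. Counts of *apc* itself were 10007 to 10365 in WT larvae given vehicle and 5593 to 8270 in mutant larvae given vehicle (log2 fold change -0.49, SE 0.12, adjusted p = 0.0153). In WT rapamycin replicate 3 *apc* had 3808 counts, below every mutant library. Its *axin2* level of 45.2 CPM was the lowest of the WT libraries and far below the mutant range. That library also stood apart for the respiratory chain, and the main counts of each comparison that involves it are given with and without it. Libraries were compared with edgeR's quasi-likelihood test, and a gene passed at a Benjamini-Hochberg adjusted p under 0.05 over all genes tested. The main fits did not pair libraries by replicate number, and fits that did are named as such.

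In larvae given vehicle, respiratory chain mRNAs of *apc* mutants stood close to those of WT. The median log2 fold change of the 100 genes (mutant over WT) was 0.01, against -0.00 for all genes, and 88 of the 100 genes lay within 0.2 of 0, against 39.7% of all genes. Values lay above 0 for 55 members, against 49.6% of all genes. Only 3 members passed the test, *cox4i2* and *atp5mc1* lower and *ndufaf4* higher in the mutant, whereas 28.4% of the 22335 genes tested passed (14.8% higher and 13.6% lower). Those 3 fall to different complexes, IV, V and the assembly of I. A change of at least 2-fold was reached by *cox4i2* alone, beside 7.95% of all genes. At an unadjusted p under 0.05 there were 5 members, *ndufaf1* and *cox7a2l* in addition, against 39.3% of all genes.

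**Figure D1:**
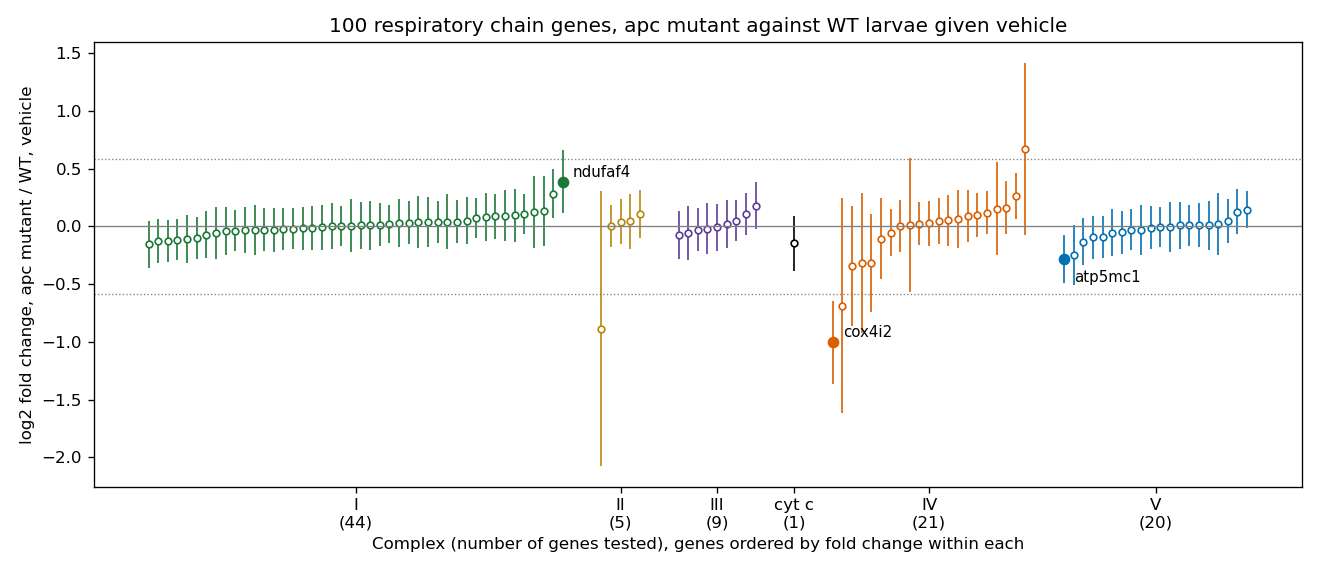
Log2 fold change of each tested respiratory chain gene in *apc* mutant over WT larvae given vehicle (vertical axis) by complex (horizontal axis), with 95% intervals as bars. Filled points passed the test, and dotted lines mark a 1.5-fold change, within which the whole interval of 91 of the 100 genes lies.

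The 95% interval of the log2 fold change lay wholly within a 1.5-fold change for 91 of the 100 members and for 42.4% of all genes. Members were also measured more precisely, with a median half-width of 0.20 against 0.33 for all genes. The 2 shares therefore differ in precision as well as in size of change. In complex I this held for 43 of the 44 genes tested, in complex III for 9 of 9, in complex V for 20 of 20, in complex II for 4 of 5 and in complex IV for 14 of 21. Mutant and WT libraries did not overlap for 12 members, of which 8 were higher and 4 lower in the mutant, against 43.8% of all genes (22.1% higher and 21.7% lower). The plot of fold changes by complex shows that the wide intervals belong mainly to complex IV.

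The levels were also summed over the genes of each complex. Complex I summed to 3683 ± 80.1 CPM in WT and 3676 ± 238 in mutant larvae (SD, n = 3). Complex II summed to 433.0 ± 17.0 and 444.7 ± 23.8 CPM, complex III to 1667 ± 36.7 and 1686 ± 126. Complex IV summed to 2886 ± 106 CPM in WT and 3020 ± 267 in the mutant, and complex V to 6987 ± 173 and 6595 ± 430. For complexes I to IV the mutant and WT libraries overlapped. Complex V stood at 7046, 6793 and 7123 CPM in WT and at 6348, 6347 and 7091 CPM in the mutant. It was lower in the mutant for each of the 3 replicate numbers. Mutant replicate 3 was nevertheless above WT replicates 1 and 2, so the groups overlapped for complex V too. The ratio of mutant to WT for complex V was 0.944, and 0.904 with upper-quartile scaling, and the sums were not tested. Gene by gene, complex V had a median log2 fold change of -0.01, with 8 of its 20 genes above 0. A sum gives most weight to abundant genes. Among these, *atp5f1b*, whose levels are given below, was lower in the mutant for each of the 3 replicate numbers.

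**Figure D2:**
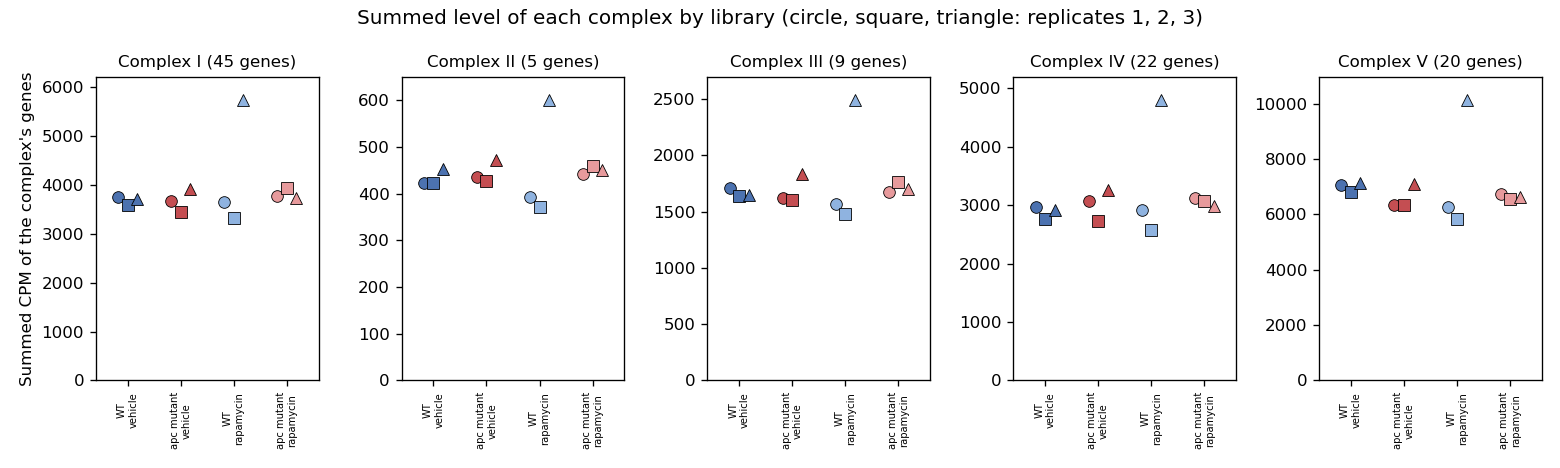
Summed CPM of the genes of each complex (vertical axis, from 0) in the 12 libraries, grouped by genotype and treatment (horizontal axis), with circle, square and triangle for replicates 1, 2 and 3. WT rapamycin replicate 3 is the highest library in all 5 panels, at 5739 CPM for complex I and 10143 CPM for complex V.

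*cox4i2* encodes the second isoform of subunit IV of cytochrome c oxidase, which in mammals is induced at low oxygen and is expressed in the lung. It stood at 10.4, 9.15 and 9.59 CPM in the WT libraries given vehicle and at 5.40, 3.70 and 5.43 CPM in the mutant libraries. Every mutant library was below every WT library. The level was 2.01-fold lower in the mutant (95% interval -1.37 to -0.64 and SE 0.16 on the log2 scale, adjusted p = 0.00198). Over 13 alternative settings the log2 fold change stayed between -1.10 and -0.84, with adjusted p between 1.18e-07 and 0.0140.

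In rapamycin *cox4i2* was again lower in the mutant, at 5.24, 3.71 and 4.09 CPM against 10.3, 6.82 and 13.9 CPM in WT. The libraries did not overlap here either. The log2 fold change in rapamycin was -1.25 (SE 0.24, adjusted p = 0.00379), and -0.97 (SE 0.21, adjusted p = 0.00569) without WT rapamycin replicate 3. It was the one member that passed with all libraries in both comparisons of genotype.

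The other genes for subunit IV did not pass. *cox4i1*, the first isoform, was at 451.2, 374.4 and 404.1 CPM in WT and at 401.5, 384.5 and 447.9 CPM in mutant larvae given vehicle, with a log2 fold change of 0.00 (95% interval -0.22 to 0.23). *cox4i1l* was at 10.4, 6.21 and 7.53 CPM in WT and at 10.5, 5.38 and 8.50 CPM in the mutant, with a log2 fold change of 0.01 (95% interval -0.57 to 0.60). For both the groups overlapped throughout, and the interval of *cox4i1l* is too wide to exclude a change of 1.5-fold.

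**Figure D3:**
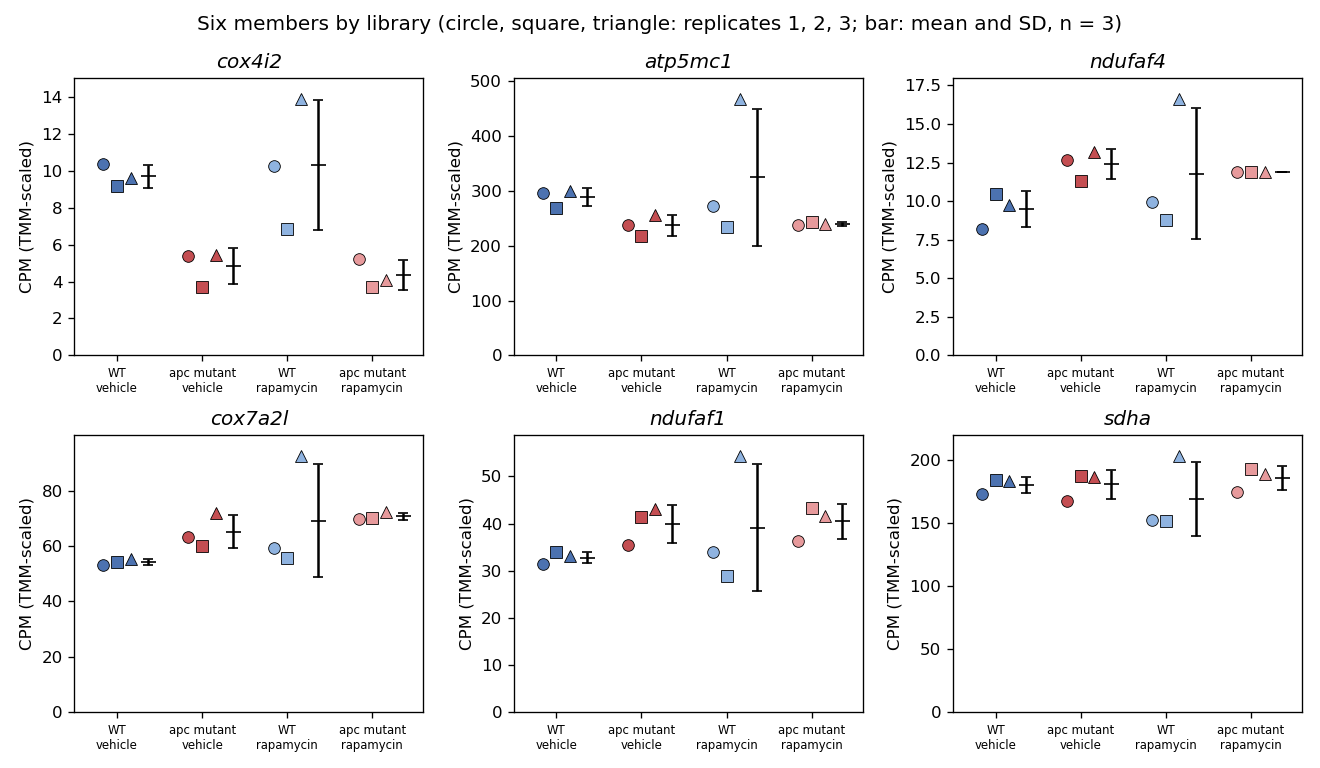
TMM-scaled CPM (vertical axis, from 0) of 6 members in each library of the 4 groups (horizontal axis), with bars for mean and SD (n = 3). *cox4i2* is lower in both mutant groups than in both WT groups, while for *sdha* the vehicle groups overlap.

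*atp5mc1* encodes the c subunit that forms the rotating ring of ATP synthase. It was at 296.1, 269.5 and 300.6 CPM in WT and at 237.0, 218.3 and 256.8 CPM in mutant larvae given vehicle. The groups did not overlap, and the log2 fold change was -0.28 (SE 0.09, adjusted p = 0.0465). This call was near the threshold, and it was lost in 5 of the 6 fits that left out a vehicle library, where the log2 fold change ranged from -0.35 to -0.23. The other genes for this subunit did not pass, with *atp5mc3* at a log2 fold change of 0.01 (SE 0.09) and *atp5mc3b* at 0.13 (SE 0.08).

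*ndufaf4* encodes a factor needed to assemble complex I and no part of the finished enzyme. It was at 8.19, 10.4 and 9.78 CPM in WT and at 12.7, 11.3 and 13.2 CPM in mutant larvae given vehicle. Every mutant library was higher, with a log2 fold change of 0.39 (SE 0.12, adjusted p = 0.0411). This call was lost without WT vehicle replicate 1 or 3 and without mutant vehicle replicate 1 or 3, with log2 fold changes of 0.29 to 0.47 over the 6 fits that left out a library. The assembly factors were the class of complex I with the highest median, 0.12 over 7 genes, against 0.01 for 30 accessory subunits and -0.02 for 7 core subunits.

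Libraries with the same replicate number were more alike than others, and 7 members passed in vehicle when the replicate number was a block, of which 4 were higher and 3 lower, beside 36.5% of all genes (18.3% higher and 18.2% lower). They were the 3 above, *ndufaf1* (log2 fold change 0.28, adjusted p = 0.0182), *cox7a2l* (0.26, adjusted p = 0.0249), *ndufa4l2* (0.66, adjusted p = 0.0420) and *atp5f1b* (-0.26, adjusted p = 0.0362). *ndufaf1* is an assembly factor of complex I, and *cox7a2l* in mammals joins complexes III and IV into supercomplexes. *ndufa4l2*, related to the complex IV subunit *ndufa4* and in mammals a target of hypoxia signaling, was low, at 0.51 to 0.89 CPM in WT and 0.75 to 1.51 CPM in the mutant. *atp5f1b* encodes the catalytic beta subunit of ATP synthase.

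Of these, *ndufaf1* was at 31.5, 33.9 and 33.1 CPM in WT and at 35.4, 41.4 and 43.1 CPM in mutant larvae given vehicle, and missed the threshold without the block (adjusted p = 0.0501). *cox7a2l* was at 53.3, 54.3 and 55.2 CPM in WT and at 63.3, 60.2 and 71.8 CPM in the mutant (adjusted p = 0.0527 without the block). *atp5f1b* was at 1511, 1629.6 and 1665 CPM in WT and at 1120.1, 1453 and 1474 CPM in the mutant (adjusted p = 0.141 without the block). In each of these 3 genes the vehicle groups did not overlap, and every difference was smaller than 1.5-fold.

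None of the 5 genes of complex II passed. *sdha*, the flavoprotein subunit of succinate dehydrogenase, was at 172.7, 183.7 and 183.5 CPM in WT and at 167.4, 187.1 and 186.6 CPM in mutant larvae given vehicle, a log2 fold change of 0.00 (95% interval -0.18 to 0.19). The iron-sulfur subunit *sdhb* had a log2 fold change of 0.05 (SE 0.10) and the membrane anchor *sdhc* one of 0.11 (SE 0.09). One *sdhd* gene (ENSDARG00000030139) had one of 0.04 (SE 0.09). The other gene of that name (ENSDARG00000055712) had 3 to 24 counts per library, and its log2 fold change of -0.89 carried an SE of 0.53.

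None of the 7 core subunits of complex I passed. Their log2 fold changes lay between -0.12 (*ndufs1*, which binds iron-sulfur clusters of the matrix arm) and 0.01 (*ndufs7*). The 30 accessory subunits tested lay between -0.15 (*ndufab1b*, a mitochondrial acyl carrier protein) and 0.09 (*ndufa8*), and none of them passed. In complex III the range was -0.07 (*uqcrfs1*, the Rieske iron-sulfur protein) to 0.18 (*uqcrb*), with *cyc1*, the cytochrome c1 heme protein, at 0.11 (SE 0.08). *cycsb*, which encodes cytochrome c, was at 210.7, 220.5 and 233.7 CPM in WT and at 182.4, 187.6 and 230.2 CPM in the mutant. Its groups overlapped and its log2 fold change was -0.15 (SE 0.11).

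Over the 11 libraries other than WT rapamycin replicate 3, the highest level of a member was a median of 1.29 times its lowest, against 1.81 for all genes. Within 1.5-fold stayed 84 of 100 members, against 28.2% of all genes. The part of precision in these ranges was not separated. More than 2-fold was spanned over those libraries by 7 members, against 41.5% of all genes. They were *cox4i1l*, *cox4i2*, *cox7a1*, *cox8b*, *cox6a1* (ENSDARG00000054588), *ndufa4l2* and *sdhd* (ENSDARG00000055712). All but the last were assigned to complex IV. Their mean counts were 11.6 to 599 per library.

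Some of that spread followed the replicate number. *cox4i1l* was highest in replicate 1 of each of the 4 groups, at 10.4, 10.5, 12.9 and 12.8 CPM, and *ndufa4l2* was highest in the same libraries. They were the only 2 members with this order, which 4.22% of all genes showed. Replicate 2 was lowest in all 4 groups for 14 members, among them *sdhb*, *cox4i2*, *cox6b1*, *cox7a1* and *atp5f1a*, whereas 5.86% of all genes showed this order. Replicate 3 was lowest in all 4 groups for 0 members and 6.75% of all genes. These counts are descriptions, and WT rapamycin replicate 2 is also the library with the lowest depth.

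Lists of genes around the chain were counted for mutant against WT in vehicle, where 28.4% of all genes passed (14.8% higher and 13.6% lower). None of the 13 subunits encoded by mitochondrial DNA passed in vehicle, with log2 fold changes of -0.20 (*mt-atp8*) to 0.23 (*mt-co2*). Of 49 assembly factors outside the naming rule, 4 were higher and 1 lower in the mutant. *higd1a*, which in mammals is induced by hypoxia and modulates complexes III and IV, was 1.92 higher on the log2 scale (SE 0.17, adjusted p = 9.46e-05). *pet100*, a chaperone of complex IV assembly, was 0.55 higher (SE 0.13, adjusted p = 0.0140), and *lyrm7*, which in mammals helps insert the Rieske protein, was lower at -0.51 (SE 0.10, adjusted p = 0.00629). These lists, like the members, were chosen with results of these data known.

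A further list outside the rule held 31 tested genes for electron donors and for carriers, among them carriers of phosphate and of ADP/ATP. Of these, 6 were higher and 4 lower in the mutant given vehicle, where 28.4% of all genes passed. The uncoupling proteins *ucp3* and *ucp1* were higher, by 1.65 (SE 0.32, adjusted p = 0.00569) and 1.35 (SE 0.25, adjusted p = 0.00412) on the log2 scale. The phosphate carrier *slc25a3a* (-1.07, SE 0.26, adjusted p = 0.0146) and the ADP/ATP carrier *slc25a6* (-0.59, SE 0.16, adjusted p = 0.0267) were lower. Of 21 genes listed with the tricarboxylic acid cycle, 0 were higher and 2 lower. They were *suclg2*, a subunit of succinyl-CoA ligase, at -0.36 (SE 0.07, adjusted p = 0.00741), and 1 of the 2 genes named *pc*, for pyruvate carboxylase, at -0.51 (SE 0.16, adjusted p = 0.0447).

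Of 23 regulators of mitochondrial biogenesis, 4 were higher and 2 lower, where 28.4% of all genes passed. *myca*, a MYC homolog that Wnt signaling is known to induce, was 1.13 higher (SE 0.09, adjusted p = 5.67e-05) and *pprc1*, a coactivator related to PGC-1, 0.97 higher (SE 0.11, adjusted p = 0.000339). *ppargc1a* itself was lower at -0.70 (SE 0.20, adjusted p = 0.0292), as was *gabpb1* at -0.64 (SE 0.16, adjusted p = 0.0177), a partner of the GABP factor that binds many promoters of respiratory chain genes in mammals. Of 73 mitochondrial ribosome genes, 4 were higher and 0 lower. With the replicate block 9 of them were higher, against 18.3% of all genes. *mrpl33*, at 0.40 (SE 0.11, adjusted p = 0.0270), was the highest of the mitochondrial ribosome genes.

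Marker lists of other cell types were counted beside these results, where 28.4% of all genes passed, and 36.5% with the replicate block. In vehicle, 5 of 8 cardiomyocyte markers were lower in the mutant and 0 higher, with a summed level of 156.5 to 182.7 CPM in WT and 108.4 to 119.2 CPM in the mutant. Of 15 skeletal muscle markers, 4 were lower and 0 higher (8 lower with the replicate block), with a summed level of 73383 to 80003 CPM in WT and 62112 to 68844 CPM in the mutant. Of 10 neuronal markers 8 were lower and 0 higher, of 14 liver markers 6 were higher and 4 lower with sums that overlapped, and of 9 erythroid markers 0 passed (2 higher and 1 lower with the block). None of the lists had a summed level at 0, and their part in the levels of respiratory chain genes was not tested.

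WT rapamycin replicate 3 had the highest level of the 12 libraries for 94 of the 100 members, against 23.4% of all genes. The median member stood there at 1.64 times its median over the other 11 libraries, where the median of all genes was 0.97, and 74 members were more than 1.5 times that median, against 15.2% of all genes. All members together summed to 24190 CPM there and to 13784 to 16802 CPM in the other 11 libraries. These levels depend on the scaling. The TMM factor of WT rapamycin replicate 3, 0.849, was the lowest of the 12, and a lower factor raises the CPM of every gene in a library. The same factor applied to all genes there, whose median was 0.97. The size of the excess is given with TMM scaling alone, so how far it rests on that factor is not shown. The 2 other WT rapamycin libraries summed to 15010 and 13784 CPM.

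**Figure D4:**
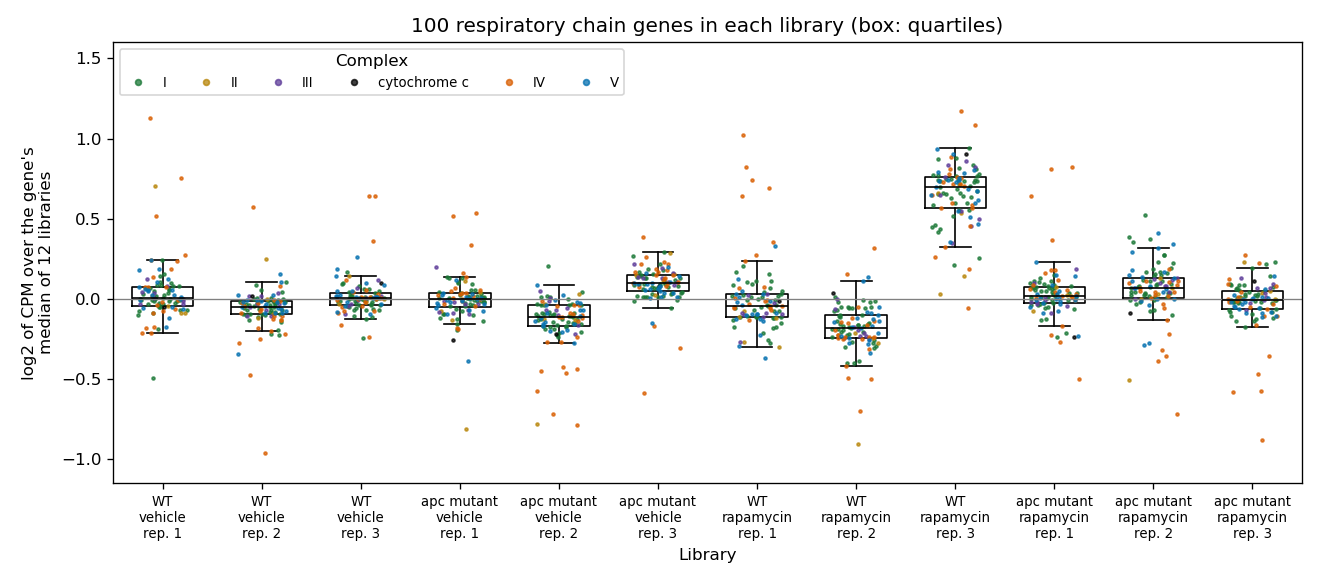
Log2 of the CPM of each of the 100 tested members over that gene's median of the 12 libraries (vertical axis), by library (horizontal axis). Boxes give quartiles and colors the complex, and the box of WT rapamycin replicate 3, with a median of 0.70, lies above those of all other libraries, whose medians are -0.18 to 0.10.

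The excess in that library was broad and uneven. Its median was 1.68 over 30 accessory subunits of complex I (1.39 to 1.92) and 1.37 over 7 core subunits (1.16 to 1.63). It was 1.57 over complex III, 1.64 over complex IV and 1.66 over complex V. *sdha*, at 202.9 CPM, was at 1.11 times its median in the other libraries and *ndufs8* at 1.16, while *ndufc1* was at 1.92 and *cycsb*, at 407.7 CPM, at 1.89. *cox4i1l* was the one member below its median there, at 0.93.

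Other mitochondrial lists were high in the same library. The mitochondrial ribosome summed to 3537 CPM there and to 2067 to 2591 CPM in the other libraries, a ratio of 1.55 to their median. Subunits encoded by mitochondrial DNA stood at 1.45 times the median of the others and assembly factors at 1.42. For the former the other WT rapamycin libraries, at 40947 and 44657 CPM, were also above WT vehicle (34808 to 35912 CPM). Without replicate 3 their median log2 fold change for rapamycin in WT was 0.26, and 0 of 13 passed. In mutant larvae their sums overlapped between vehicle (34301 to 43750 CPM) and rapamycin (36949 to 43962 CPM). The list of electron donors and carriers, which includes carriers of phosphate and ADP/ATP, stood at 1.34. The list for the tricarboxylic acid cycle stood at 1.22 and biogenesis regulators at 0.96 times the median of the others. Biogenesis regulators summed higher in mutant than in WT larvae, and that median was a mutant value. At 401.9 CPM they were above WT vehicle (335.2 to 355.2 CPM) and the other WT rapamycin libraries (333.9 and 338.1 CPM). Marker lists of other tissues stood at 1.89 for cardiomyocytes, 1.65 for erythroid cells, 1.51 for liver, 1.39 for skeletal muscle and 1.35 for neurons. For cardiomyocytes and neurons, whose sums were lower in mutant larvae, the median was a mutant value. Neuronal markers summed to 1185 CPM in this library and to 1059 to 1180 CPM in WT vehicle. Cardiomyocyte markers summed to 224.8 CPM, against 173.3 and 202.4 CPM in the other WT rapamycin libraries. The part of the marker lists in the excess was not tested.

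The genotype comparison in rapamycin changed with this library. With all 12 libraries, 1 of 100 members passed, *cox4i2*, against 17.4% of 22841 genes (9.11% higher and 8.28% lower), and 7.64% of all genes also reached 2-fold. The median log2 fold change was -0.17, with 11 members above 0, against 47.3% of all genes. The libraries did not overlap for *cox4i2* and *cox6a1* (ENSDARG00000054588), against 29.1% of all genes, 3 members had an unadjusted p under 0.05, against 29.8%, and 52 intervals lay within 1.5-fold, against 28.6%. Without WT rapamycin replicate 3, 11 passed, 10 higher and *cox4i2* lower in the mutant, against 28.7% of all genes. The median was then 0.15, and 85 of 100 members lay above 0, against 48.5% of all genes. An unadjusted p under 0.05 was then reached by 27 of the 100 members, while 28.7% of all genes passed even after adjustment. Then 84 intervals lay within 1.5-fold, against 32.9% of all genes. With the replicate block and that library left out, 16 passed, of which 15 were higher, against 35.0% of all genes. The share of members that passed stayed below that of all genes in each of these fits. Of the 73 mitochondrial ribosome genes, 1 was higher and 0 lower with all libraries and 23 were higher and 0 lower without that library, where 15.1% of all genes were higher, while 0 of the 13 subunits encoded by mitochondrial DNA passed either way.

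**Figure D5:**
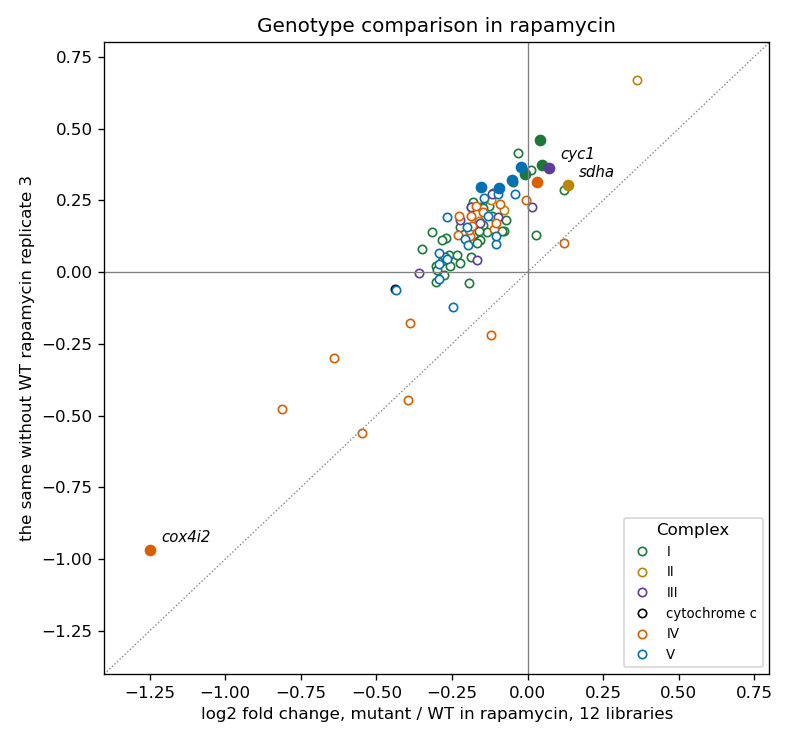
Log2 fold change of each member between mutant and WT larvae given rapamycin, with all 12 libraries (horizontal axis) and without WT rapamycin replicate 3 (vertical axis), with the dotted line marking equal values and filled points the 11 genes that passed without it. Most genes cross from below to above 0, and the median moves from -0.17 to 0.15.

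The 10 higher members came from every complex. *cyc1* was at 212.7 and 216.6 CPM in WT rapamycin replicates 1 and 2 and at 258.5, 280.5 and 280.5 CPM in the mutant, with a log2 fold change of 0.36 (SE 0.09, adjusted p = 0.00848) without replicate 3. Replicate 3 of WT rapamycin, at 351.1 CPM, was above all of these, and the log2 fold change with it was 0.07 (SE 0.17). *sdha* was at 152.3 and 151.3 CPM in those WT libraries and at 174.4, 192.4 and 188.5 CPM in the mutant, with a log2 fold change of 0.30 (SE 0.09, adjusted p = 0.0250). With replicate 3 it was 0.13 (SE 0.12, adjusted p = 0.524).

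*ndufa6*, an accessory subunit of complex I, had the highest value of the 10, with a log2 fold change of 0.46 (SE 0.13, adjusted p = 0.0190) without replicate 3. It was at 60.1 and 54.9 CPM in the 2 WT libraries and at 75.8, 93.1 and 66.2 CPM in the mutant. The assembly factors *ndufaf1* (0.37, adjusted p = 0.0359) and *ndufaf5* (0.34, adjusted p = 0.0215), *cox7a2l* (0.31, adjusted p = 0.0201) and 4 genes of ATP synthase made up the rest. Those were *atp5if1a* (0.37, adjusted p = 0.0345), the inhibitor that blocks reverse rotation, *atp5mc3b* (0.32, adjusted p = 0.0284), *atp5mg* (0.30, adjusted p = 0.0444) and *atp5f1d* (0.29, adjusted p = 0.0499).

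The calls rested on few WT libraries. WT rapamycin replicate 2 was the lowest of the 12 libraries for 51 members, a count that was not made for all genes. Without it, with replicate 3 kept, 5 members passed, all lower in the mutant, against 17.5% of all genes. They were *cox4i2*, *cox8b* (log2 fold change -1.13), *cox5b* (ENSDARG00000068738, -0.88), *atp5mc1* (-0.66) and *ndufa4b* (-0.61). *cox4i2* passed on every choice of libraries tried.

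Rapamycin itself gave no call among the members. In WT larvae 0 of 100 passed, against 0% of all genes. With the replicate block and WT rapamycin replicate 3 left out, 0 members and 27 genes (0.117%) passed, 22 of those genes higher and 5 lower in rapamycin. At an unadjusted p under 0.05 there were 4 members and 1394 genes (6.10%), and DESeq2 called 0 members and 2 genes. The median log2 fold change (rapamycin over vehicle) was 0.23 with all libraries, with 94 members above 0, against 51.6% of all genes. Without WT rapamycin replicate 3 it was -0.11, with 21 members above 0, against 50.3% of all genes. The 95% interval lay within 1.5-fold for 24 members with all libraries, against 39.9% of all genes, and for 88 without that library, against 52.3%. At an unadjusted p under 0.05 there were 12 members without it, a level at which all genes were not counted in that fit. Rapamycin and vehicle libraries did not overlap for 5 members, all higher in rapamycin, against 5.45% of all genes. *atp5mea*, which encodes the e subunit of ATP synthase, was among them, at 23.6, 20.5 and 27.4 CPM against 16.6, 14.7 and 18.8 CPM. Its log2 fold change of 0.51 (SE 0.14) did not pass (adjusted p = 0.784), nor did the value of 0.39 (SE 0.13, adjusted p = 0.357) without replicate 3.

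In mutant larvae the treatments were close, with the spread estimated over all 12 libraries. Again 0 of 100 members passed, against 0% of all genes, by edgeR or DESeq2, and at an unadjusted p under 0.05 there were 0 members and 150 genes. Among tested members the libraries did not overlap for *ndufs8* alone, a core subunit of complex I, which was higher in rapamycin, against 4.41% of all genes (2.33% higher and 2.08% lower). The median log2 fold change was 0.04, and the 95% interval lay within 1.5-fold for 86 of 100 members, against 53.2% of all genes. Without WT rapamycin replicate 3, a library of neither group, the median was 0.04. The interval then lay within 1.5-fold for 94 members, against 64.2% of all genes. The median half-width of the interval was 0.41 with that library and 0.19 without it. Complex I summed to 3676 ± 238 CPM in vehicle and 3807 ± 108 in rapamycin, complex IV to 3020 ± 267 and 3065 ± 70.5, and complex V to 6595 ± 430 and 6632 ± 103 (SD, n = 3). *sdha* had a log2 fold change of 0.04 (95% interval -0.23 to 0.30), *cyc1* one of 0.02 (-0.34 to 0.39) and *cox4i2* one of -0.15 (-0.68 to 0.37).

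The response to rapamycin was not shown to differ between the genotypes for any member. For the interaction, 0 of 100 passed, against 0% of all genes, with 0 members and 364 genes (1.59%) at an unadjusted p under 0.05 and 0 members and 2 genes by DESeq2. The median interaction (mutant response minus WT response, log2) was -0.19 with all libraries and 0.14 without WT rapamycin replicate 3. Without that library 86 members lay above 0, against 50.6% of all genes, and 0 passed. In that fit 8 members had an unadjusted p under 0.05, a level at which all genes were not counted. For *cox4i2* the interaction was -0.25 (SE 0.34), and 0.03 (SE 0.29) without that library.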

How the data were processed

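Counts were the authors' estimated counts per Ensembl gene, deposited as whole numbers and not scaled. The submitters' processing notes name Salmon and GRCz10, whereas the methods name STAR with GRCz10, so how reads shared between gene copies were divided is not given in the sources used here. Members and gene lists were chosen with earlier results of these data known. In R 4.3.3, edgeR 4.0.16 (TMM, filterByExpr with a minimum of 10 counts, quasi-likelihood test, Benjamini-Hochberg adjustment over all genes) compared genotypes in vehicle on 6 libraries and made the other 4 comparisons in a model of all 12. No fold minimum was set. Intervals are 95%. *ndufa9b* and *ndufa4l2b* failed the filter.

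Named members were complex II, *cyc1*, *cycsb*, isoform genes, the extremes of each complex in vehicle and, among those that passed with a mean of at least 100 counts, the 5 highest and lowest. Others (*ndufaf1*, *ndufaf5*, *ndufa6*, *atp5f1b*, *atp5f1d*, *atp5mg*, *atp5mea*, *ndufs1*, *ndufs7*, *ndufs8*, *ndufa8*, *ndufc1*) were named after their values were seen. From each other list up to 2 highest and 2 lowest that passed were taken, and *mt-atp8* and *mt-co2* after their values were seen.

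The labels give replicates 1 to 3 in each group and the methods 3 clutches. After subtracting group means, the correlation over genes of libraries with the same number averaged 0.363 (18 pairs, lowest 0.149), so the numbers were taken to pair the samples. That of libraries with different numbers averaged -0.181 (36 pairs, highest 0.00488). A negative mean there follows from the subtraction when the first mean is positive, so it adds no separate support. The main fits did not use the pairing, which entered only in the fits with the replicate block. Each result was recomputed with other scaling factors (RLE, upper quartile), DESeq2 1.42.0, looser and stricter filters, a replicate block, fewer or more groups in the model, and without each library in turn. For the excess of WT rapamycin replicate 3 over the other libraries, only values with TMM scaling are given. The procedure was tested on simulated data.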

Additional observations from a re-analysis of the deposited data

How the results depend on the processing

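In vehicle 3 members passed, against 28.4% of all genes. That number became 1 with a 2-fold minimum (7.95% of all genes) and 7 with the replicate block (36.5%). It became 1 with all 12 libraries in one model, 5 with DESeq2 and 1 to 5 with a library left out. For those last settings the share of all genes is not given here, so the counts cannot be set against it. The median stayed between -0.06 and 0.05. In rapamycin, the number that passed ranged from 1 to 11 with a library left out, with 28.7% of all genes where it was 11. It was 16 with the replicate block and WT rapamycin replicate 3 left out (35% of all genes), an alternative chosen after seeing the data. The replicate block alone changed no other count of members by more than 1.5 times.

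With a library left out, the median log2 fold change ranged from -0.36 to 0.15 for genotype in rapamycin, from -0.11 to 0.43 for rapamycin in WT and from -0.39 to 0.14 for the interaction, whose value was 0.13 with the block and WT rapamycin replicate 3 left out. Without that library, 85 in place of 11 members lay above 0 for genotype in rapamycin, and 21 in place of 94 for rapamycin in WT. A turn of direction was counted for a named member only if it passed in either fit or its main value lay more than 1 SE from 0. Ranges over all left-out libraries are in brackets. By this rule values turned without that library for *atp5if1a* (-0.22 to 0.37), *atp5mc3b* (-0.26 to 0.32), *cox4i1* (-0.38 to 0.12), *cox5a* (-0.45 to 0.13), *cox6b2* (-0.37 to 0.15) and *ndufab1b* (-0.47 to 0.12) in the genotype comparison. In the rapamycin comparison they turned for *cycsb* (-0.019 to 0.53), *sdhc* (-0.092 to 0.47) and *sdhd* (ENSDARG00000030139, -0.12 to 0.41). Ranges of other named members crossed 0 too, such as *sdhb* (-0.26 to 0.22) and *cox5aa* (-0.38 to 0.23) for genotype and *cyc1* (-0.22 to 0.21) for rapamycin in WT. The cause was not tested. With upper-quartile factors, the mutant to WT ratio of the complex sums in vehicle fell from 0.998 to 0.956 for complex I, from 1.03 to 0.983 for II, from 1.01 to 0.968 for III, from 1.047 to 1.002 for IV and from 0.944 to 0.904 for V, so that its direction turned for II and III.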
